A study of Homo sapiens with 14 samples.

Results

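Nascent transcription of 10 heat shock chaperone genes was examined in A549 cells, a human lung adenocarcinoma line, by precision run-on sequencing (PRO-seq). PRO-seq permeabilizes cells, lets engaged RNA polymerases add labelled nucleotides for a short run-on, and sequences the labelled RNA, so a value reflects polymerases at work on a gene and not the amount of its messenger RNA. The members were the rows of the gene count matrix named HSPA1A, HSPA1B, DNAJB1, HSPH1, HSP90AA1, HSPA8, HSPB1, HSPE1, HSPD1 and BAG3, found by name. They were 10 of 58780 genes in the matrix, and all 10 were among the 21910 genes that passed the filter on low counts. The 14 libraries formed 7 groups of 2. Untreated control cells were kept for 15 min in 0.01% DMSO. GSK591, an inhibitor of the arginine methyltransferase PRMT5 (type II), was given at 1 µM for 15 min, for 15 min together with 100 nM dexamethasone (Dex, a synthetic glucocorticoid), or for 3 h. MS023, an inhibitor of the type I arginine methyltransferases, was given at 1 µM in the same 3 ways. All groups shared the DMSO vehicle. A group given Dex alone and untreated cells kept for 3 h were not analysed here, so at 3 h the inhibitor and the longer time cannot be told apart, and Dex was compared only on top of an inhibitor.

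Heat shock proteins are molecular chaperones that hold, refold or hand over unfolded proteins. In unstressed cells the transcription factor HSF1 is kept inactive, in part by the chaperones themselves; when unfolded proteins accumulate, HSF1 forms trimers, binds heat shock elements in the promoters of these genes and releases paused polymerase. HSP90 and its co-chaperones also hold the glucocorticoid receptor, the target of Dex, in the state that binds hormone. Because cold, scraping, medium changes and other handling can also engage the stress response, these genes serve as a check of how the cells were treated as well as of the compounds.

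Total counts ran from 5768312 to 9606938 per library, and mitochondrial genes took 39.8% to 58% of them. The 10 members held at least 105 reads each in every library. Levels are given in CPM, the usual scale of a gene's count relative to its library size, here with library sizes scaled by the trimmed mean of M-values (TMM), and changes as log2 fold changes with their standard errors (SE) from edgeR's quasi-likelihood test, n = 2 libraries per group. A gene was called when its Benjamini-Hochberg adjusted p over the 21910 genes was below 0.05. Statements on whether libraries of compared groups overlap, or lie above others, are description only. The share of all tested genes without overlap was not counted. All 10 epithelial or A549 marker genes were tested and summed to between 1020 and 1550 CPM, although EPCAM and CDH1 were low, at 1.29 to 4.08 and 1.37 to 3.45 CPM. Leukocyte markers (4 genes) summed to at most 0.705 CPM, with CD3E at 0 in all libraries, endothelial markers (3 genes) to 0.235 to 1.83 CPM, and fibroblast markers (4 genes) to 5.52 to 8.97 CPM, most of it from COL1A1. The replicates are 2 libraries per group, and nothing in the labels says that they came from separate cultures, so p-values measure the spread between these libraries. In bulk libraries, more cells transcribing a gene and more polymerases per cell cannot be told apart.

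The start regions of 6 members are shown as examples, all but that of BAG3 with letters of a heat shock element. Those of the other members are not shown, among them HSPH1, which held no such letters and rose at 3 h. HSPD1, which held such letters and was not called at 3 h, is not shown either. A link between these letters and the changes was not tested. Each is 300 bases, from 250 before to 50 after a RefSeq transcript start (GRCh38.p14), and is read along the gene's own strand. Capitals mark GAANNTTC and TTCNNGAA, inverted repeats of the GAA unit that each equal their own reverse complement; where capitals run on, the repeats overlap. The windows lie at chr6:31815293-31815592 on the plus strand for HSPA1A, chr6:31827488-31827787 on the plus strand for HSPA1B, chr19:14518348-14518647 on the minus strand for DNAJB1, chr14:102086995-102087294 on the minus strand for HSP90AA1, chr11:123062087-123062386 on the minus strand for HSPA8 and chr10:119651130-119651429 on the plus strand for BAG3. DNAJB1 and HSP90AA1 have further start windows that are not shown.
HSPA1A: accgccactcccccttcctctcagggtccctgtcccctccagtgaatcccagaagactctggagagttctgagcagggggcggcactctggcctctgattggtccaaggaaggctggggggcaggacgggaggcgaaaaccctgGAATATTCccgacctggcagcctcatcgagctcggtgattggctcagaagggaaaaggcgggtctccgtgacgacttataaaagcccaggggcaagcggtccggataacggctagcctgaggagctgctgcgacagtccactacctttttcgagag
HSPA1B: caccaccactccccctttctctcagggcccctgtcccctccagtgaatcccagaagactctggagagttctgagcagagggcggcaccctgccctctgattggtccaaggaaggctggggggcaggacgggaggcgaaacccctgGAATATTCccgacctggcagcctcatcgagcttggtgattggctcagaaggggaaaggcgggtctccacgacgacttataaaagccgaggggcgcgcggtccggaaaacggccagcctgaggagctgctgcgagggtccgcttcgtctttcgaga
DNAJB1: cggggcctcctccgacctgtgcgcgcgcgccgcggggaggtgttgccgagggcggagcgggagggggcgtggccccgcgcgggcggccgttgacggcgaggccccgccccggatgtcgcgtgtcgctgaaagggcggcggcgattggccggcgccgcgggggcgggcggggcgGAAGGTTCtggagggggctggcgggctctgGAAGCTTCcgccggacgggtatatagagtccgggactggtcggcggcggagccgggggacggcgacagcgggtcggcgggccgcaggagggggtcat
HSP90AA1: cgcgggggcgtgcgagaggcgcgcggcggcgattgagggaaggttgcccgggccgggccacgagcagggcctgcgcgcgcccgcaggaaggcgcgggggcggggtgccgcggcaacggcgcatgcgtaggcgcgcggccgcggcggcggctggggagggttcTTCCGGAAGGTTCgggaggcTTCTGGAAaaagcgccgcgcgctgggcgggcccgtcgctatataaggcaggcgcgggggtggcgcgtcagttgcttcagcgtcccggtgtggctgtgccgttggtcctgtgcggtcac
HSPA8: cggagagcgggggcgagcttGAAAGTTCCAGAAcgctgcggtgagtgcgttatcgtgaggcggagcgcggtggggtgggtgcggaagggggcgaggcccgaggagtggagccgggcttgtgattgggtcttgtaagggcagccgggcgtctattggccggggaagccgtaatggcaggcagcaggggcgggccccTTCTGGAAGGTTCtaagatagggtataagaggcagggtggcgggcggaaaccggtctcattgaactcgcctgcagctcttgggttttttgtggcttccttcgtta
BAG3: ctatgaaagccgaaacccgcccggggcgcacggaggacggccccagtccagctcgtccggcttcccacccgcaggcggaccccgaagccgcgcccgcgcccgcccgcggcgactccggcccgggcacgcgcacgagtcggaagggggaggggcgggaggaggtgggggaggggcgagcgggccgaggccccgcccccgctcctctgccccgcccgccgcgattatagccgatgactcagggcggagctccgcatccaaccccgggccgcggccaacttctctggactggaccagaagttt

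All 10 members matched the RefSeq table, with 14 windows between them. Windows of 7 members (HSPA1A, HSPA1B, DNAJB1, HSP90AA1, HSPA8, HSPB1 and HSPD1) held at least 1 of the repeats, and the windows of HSPH1, HSPE1 and BAG3 held none. Over all 34943 windows in the table, 13.51% held one. The longer run of 3 alternating units (GAANNTTC followed directly by NNGAA, which contains both repeats, searched on both strands) was found for HSP90AA1, HSPA8 and HSPD1 and in 0.49% of all windows. A TATAAA box was found for HSPA1A and HSPA1B, and in 11.57% of all windows. The letters ACANNNTGT, the core spacing of a glucocorticoid response element, searched on both strands, was in no member's window and in 5.38% of all windows. A match is a description of letters and not of binding. The HSPA1A and HSPA1B windows were identical at 277 of 301 aligned columns, with 22 mismatches and 2 gap columns. HSPD1 and HSPE1 lie head to head on opposite strands. Their nearest start sites are 105 bp apart, and the windows of these starts share 204 bp and held no repeat. The repeats of HSPD1 lie in the window of its further start, at chr2:197499791-197500090 on the minus strand.

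HSPA1A and HSPA1B encode the stress-inducible cytosolic HSP70 and are near-identical copies without introns. In the GENCODE 29 annotation (GRCh38), HSPA1A lies at chr6:31815464-31817946 and HSPA1B at chr6:31827735-31830255, both on the plus strand. Of all 50-base stretches in the HSPA1A transcripts, 71.32% also occur in HSPA1B, and 73.46% of those of HSPA1B occur in another gene. HSPA1B also overlaps AL671762.1 on its own strand by 920 exonic bp, a gene with 0 counts in all 14 libraries. How reads matching both copies were assigned is not given in the sources used here, so the split between them is uncertain. HSPA1A took 48.5% to 55.7% of the pair's reads across the 14 libraries. The summed level of the pair was 99.89 and 105.1 CPM in untreated cells, 173.6 and 143.4 CPM after 3 h of GSK591, and 139.9 and 128 CPM after 3 h of MS023. The sum therefore carries the pair's changes without depending on the split.

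**Figure D1:**
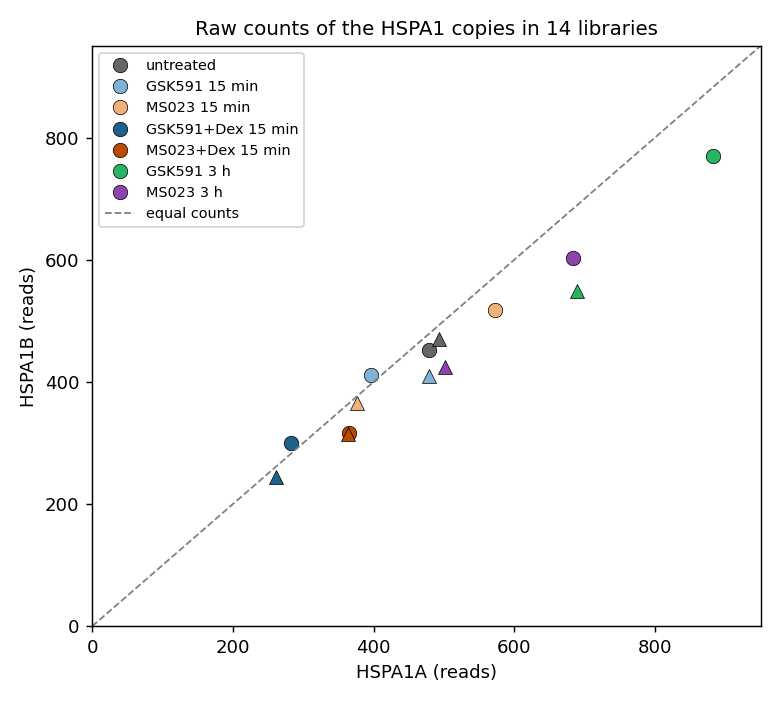
Raw reads assigned to HSPA1B (y axis) against HSPA1A (x axis) in each of the 14 libraries, coloured by group, with circles for replicate 1, triangles for replicate 2 and a dashed line of equal counts. The points lie close to the line, with HSPA1A holding 48.5% to 55.7% of the pair's reads.

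The other members share less sequence with other genes, from 0% of 50-base stretches for HSPH1 and BAG3 to 22.69% for HSPE1. DNAJB1 (chr19:14514770-14529770, minus strand), an HSP40 that delivers clients to HSP70, overlaps exons of TECR on the other strand by up to 211 bp. HSPE1 (chr2:197499994-197503457, plus strand) overlaps its partner HSPD1 (chr2:197486581-197516737, minus strand) by 281 exonic bp. HSP90AA1 (chr14:102080738-102139699, minus strand) overlaps WDR20 on the other strand by 197 exonic bp. The strand setting of the counting is not given in the sources used here, so reads in these overlaps cannot be assigned with certainty. HSPH1 (chr13:31134974-31162388, minus strand), HSPB1 (chr7:76302544-76304295, plus strand) and BAG3 (chr10:119651370-119677819, plus strand) share no exonic bases with another annotated gene. Genes lying within their introns were not counted. HSPA8 (chr11:123057489-123063230, minus strand) hosts small nucleolar RNA genes on its own strand.

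Members were already transcribed in untreated cells, at very different levels. Per kilobase of annotated exon, HSPB1, the small heat shock protein HSP27, was highest at 39.4 CPM per kb, above 98.2% of all tested genes. HSPA1A at 21.2, DNAJB1 at 20.3, HSPA8 at 20.3 and HSPA1B at 19.9 CPM per kb followed with almost the same level. The values of HSPA1A and HSPA1B depend on how reads matching both copies were counted, so their place among the members is uncertain. HSPA8 encodes the constitutive HSP70 that most cells express without stress. HSP90AA1, the inducible cytosolic HSP90, stood at 13.1 CPM per kb. The mitochondrial chaperonin HSPD1 (HSP60) and its lid HSPE1 (HSP10) stood at 9.68 and 10.8 CPM per kb, and BAG3, the co-chaperone that hands HSP70 clients to autophagy, at 8.08 CPM per kb. HSPH1, an HSP110 that exchanges the nucleotide of HSP70, was lowest at 2.3 CPM per kb, above 44.6% of tested genes. The exon length was used here whether or not intronic reads were counted, which the sources used here do not give.

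**Figure D2:**
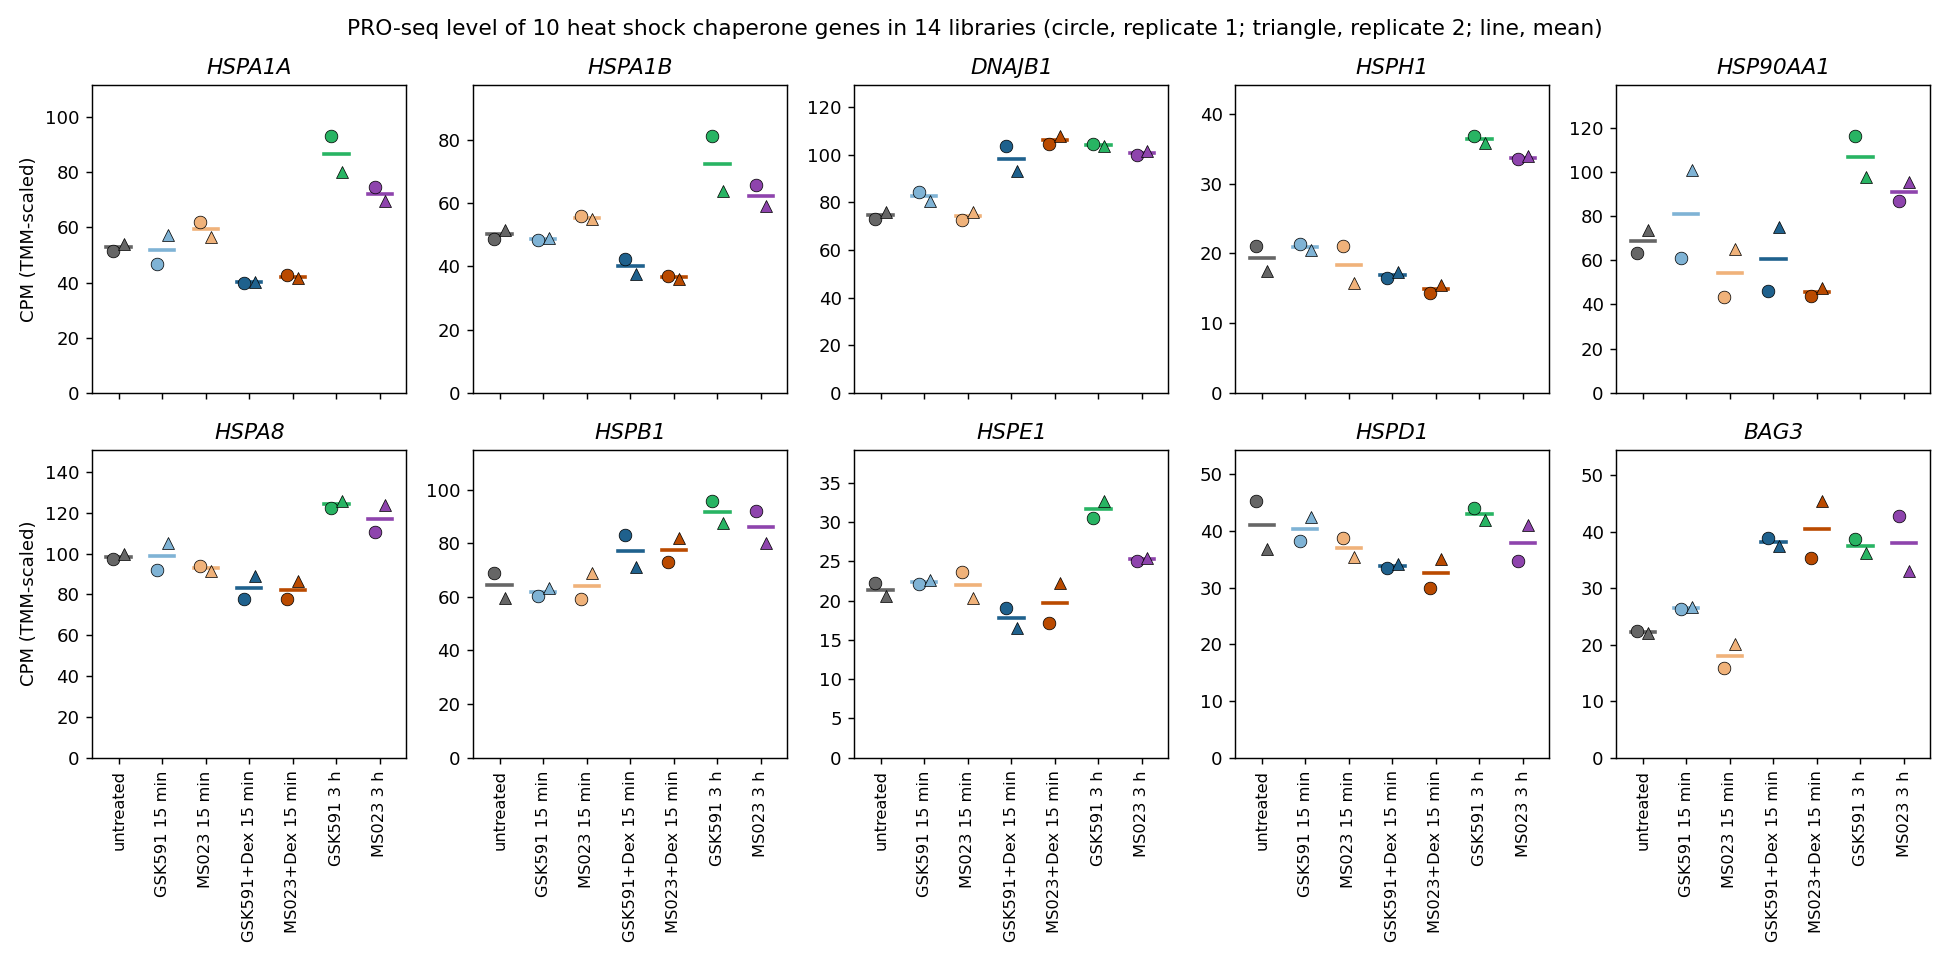
CPM of each of the 10 members in all 14 libraries, 1 panel per gene, with the 7 groups along the x axis and 1 point per library (circle, replicate 1; triangle, replicate 2) and a line at the mean. HSPH1 sits at 35.9 and 36.8 CPM after 3 h of GSK591 and at 33.5 and 33.9 CPM after 3 h of MS023, above every 15 min library.

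After 15 min of an inhibitor alone, no heat shock chaperone gene was called. With GSK591 against untreated cells 0 of 10 members were called, where 0.306% of all tested genes were, and with MS023 0 of 10, where 0.183% were. At an unadjusted p below 0.05 there were 0 members of 1501 genes with GSK591 and 2 members of 1770 genes with MS023. The median log2 change of the members was 0.03 with GSK591 and -0.03 with MS023, beside 0.02 and 0.00 over all tested genes. HSPA1A had 51.5 and 54.0 CPM in untreated cells, 46.6 and 57.1 CPM with GSK591, and 62.0 and 56.6 CPM with MS023. Its log2 changes were -0.02 with a 95% interval of -0.24 to 0.19, and 0.17 ± 0.11 (SE). BAG3 went from 22.4 and 22.0 CPM in untreated cells to 26.3 and 26.7 CPM with GSK591 and 15.8 and 20.1 CPM with MS023. Its log2 changes were 0.26 ± 0.14 (adjusted p = 0.8) and -0.32 ± 0.15 (adjusted p = 0.58). HSP90AA1 had 63.5 and 73.9 CPM in untreated cells, 60.9 and 101.1 CPM with GSK591 (0.24 ± 0.16) and 43.4 and 65.1 CPM with MS023 (-0.36 ± 0.17), and its libraries overlapped in both comparisons. These comparisons share the untreated libraries.

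After 3 h of GSK591 transcription of most members was higher than in untreated cells, and after 3 h of MS023 that of 5 members was. With GSK591 9 of 10 members rose and none fell, where 11% of tested genes were called, and with MS023 5 rose and none fell, where 7.63% were called. The members' median log2 change was 0.55 with GSK591 and 0.41 with MS023, against -0.01 over all genes in each. The summed level of the 10 genes was 514 and 511.7 CPM in untreated cells, 763.4 and 704.9 CPM with GSK591, and 665.4 and 662.8 CPM with MS023. Both comparisons use the same untreated libraries, so their members' values are set side by side and not counted as independent. Mitochondrial genes took 53.8% and 54% of counts in untreated libraries, 43.5% and 47.3% in those of GSK591 at 3 h, and 50.5% and 53.2% in those of MS023 at 3 h. Their part in the result was not tested. A setting chosen after seeing the data removed mitochondrial genes from the library size and used no TMM factor. Under it 8 members were called with GSK591 and 5 with MS023. The share of all tested genes called under it is not given, and the shares of 11% and 7.63% do not apply to it.

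The HSP70 genes rose at 3 h of GSK591. HSPA1A reached 93.1 and 80.1 CPM with GSK591 against 51.5 and 54.0 CPM in untreated cells, a log2 change of 0.72 ± 0.10 (1.64-fold, adjusted p = 2.5e-06). With MS023 it had 74.6 and 69.5 CPM, a change of 0.45 ± 0.10 (adjusted p = 0.0031). All treated libraries were above both untreated ones. HSPA1B rose with GSK591 from 48.7 and 51.5 to 81.1 and 63.8 CPM (log2 change 0.54 ± 0.10, adjusted p = 0.00039), and had 65.8 and 58.9 CPM with MS023 (0.32 ± 0.11, adjusted p = 0.06). Summed over both copies, the log2 change was 0.63 ± 0.10 with GSK591 (adjusted p = 1e-05) and 0.39 ± 0.10 with MS023 (adjusted p = 0.008). The constitutive HSPA8 moved least of the 3, from 97.3 and 99.8 CPM to 122.6 and 125.8 CPM with GSK591 (0.33 ± 0.10, adjusted p = 0.019). With MS023 HSPA8 had 110.4 and 123.7 CPM and was not called (0.24 ± 0.10, adjusted p = 0.13). The HSPA8 call with GSK591 was lost when any of the 4 compared libraries was left out, that of HSPA1B without replicate 1 of GSK591 at 3 h (0.35, adjusted p = 0.082), and that of HSPA1A with MS023 without replicate 1 of either compared group (adjusted p = 0.065 and 0.075).

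The partners that regulate HSP70 rose with both inhibitors. HSPH1 stood at 21.1 and 17.5 CPM in untreated cells, 36.8 and 35.9 CPM with GSK591 and 33.5 and 33.9 CPM with MS023. Its log2 changes of 0.91 ± 0.13 (1.88-fold, adjusted p = 1.4e-06) and 0.80 ± 0.13 (1.74-fold, adjusted p = 2.2e-05) were the largest among the members at this time. BAG3 rose from 22.4 and 22.0 CPM to 38.6 and 36.2 CPM with GSK591 (0.75 ± 0.13, adjusted p = 6.9e-05) and to 42.7 and 33.1 CPM with MS023 (0.78 ± 0.13, adjusted p = 5.2e-05). DNAJB1 rose from 73.1 and 75.9 CPM to 104.6 and 103.4 CPM with GSK591 (0.48 ± 0.09, adjusted p = 0.00033) and to 99.9 and 101.6 CPM with MS023 (0.43 ± 0.09, adjusted p = 0.0015). For all 3 genes the 4 treated libraries lay above both untreated ones. The calls of HSPH1 and BAG3 at 3 h were kept under every alternative and every library left out.

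HSPB1, which binds unfolding proteins without ATP, rose from 68.9 and 59.7 CPM to 95.7 and 87.4 CPM with GSK591 (0.51 ± 0.10, adjusted p = 0.00071) and to 92.0 and 80.2 CPM with MS023 (0.42 ± 0.11, adjusted p = 0.0069). HSP90AA1 rose with GSK591 from 63.5 and 73.9 CPM to 116.2 and 97.7 CPM (0.64 ± 0.16, adjusted p = 0.0049). With MS023 it had 86.8 and 95.3 CPM (0.41 ± 0.16, adjusted p = 0.13). HSP90AA1 was the noisiest member, with replicate 2 above replicate 1 in 6 of 7 groups and 60.9 against 101.1 CPM in the GSK591 15 min group. Its call was lost with DESeq2 (adjusted p = 0.24) and without replicate 1 of the untreated (0.12) or of the GSK591 3 h group (0.12). That of HSPB1 was lost without replicate 2 of the untreated group with either inhibitor (adjusted p = 0.064 with GSK591 and 0.21 with MS023), and with MS023 also without replicate 1 of the 3 h group (0.2). Without that library, 3 members were called with MS023.

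HSPE1 and HSPD1, the mitochondrial chaperonin genes whose nearest starts lie 105 bp apart, gave 1 call between them at 3 h, that of HSPE1 with GSK591. HSPE1 rose with GSK591 from 22.2 and 20.6 CPM to 30.6 and 32.7 CPM (0.56 ± 0.13, adjusted p = 0.0018), and had 25.1 and 25.5 CPM with MS023 (0.24 ± 0.13, adjusted p = 0.31). The HSPE1 call was lost without replicate 2 of the untreated group (adjusted p = 0.054). HSPD1 had 45.3 and 36.9 CPM in untreated cells, 44.1 and 42.0 CPM with GSK591 and 34.7 and 41.0 CPM with MS023. It was the member that was not called with GSK591, with log2 changes of 0.07 ± 0.11 (adjusted p = 0.79) and -0.13 ± 0.12 (adjusted p = 0.61), and its libraries overlapped. The difference between HSPE1 and HSPD1 was not tested.

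Set against 15 min of the same inhibitor, which removes the shared untreated libraries, the later time was again higher. With GSK591 8 of 10 members rose from 15 min to 3 h and none fell, where 6.41% of tested genes were called. With MS023 6 rose and none fell, where 12% were called. With GSK591 HSPH1 rose by a log2 change of 0.80 ± 0.13 (adjusted p = 5.6e-05) and HSPA1A by 0.74 ± 0.10 (adjusted p = 7.4e-06). With MS023 BAG3 rose by 1.11 ± 0.14 (2.15-fold, adjusted p = 2e-07), HSPH1 by 0.85 ± 0.13 (adjusted p = 8.9e-06) and HSP90AA1 by 0.76 ± 0.17 (adjusted p = 0.0013). HSPA1A and HSPA1B were not called with MS023, at 0.28 ± 0.10 (adjusted p = 0.075) and 0.17 ± 0.11 (adjusted p = 0.34). The test of whether the time change differed between inhibitors called 0 of 10 members, where 0.561% of tested genes were called (3 members and 2194 genes at an unadjusted p below 0.05). The largest such differences were -0.61 ± 0.19 for BAG3 (adjusted p = 0.17) and 0.46 ± 0.15 for HSPA1A (adjusted p = 0.18). The number of members called with GSK591 was 4, 5, 4 and 4 when replicate 1 or 2 of the 15 min group, or replicate 1 or 2 of the 3 h group, was left out. With MS023 it was 3 without replicate 1 of the 15 min group, and the HSP90AA1 call was then lost (0.48, adjusted p = 0.16), as it was with DESeq2 (adjusted p = 0.14).

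Adding Dex for 15 min moved the members in both directions, mostly without a call. By sign alone, BAG3, DNAJB1 and HSPB1 lay higher with Dex than with the inhibitor alone beside either inhibitor, and the other 7 members lay lower. The share of all tested genes on each side of 0 is not given. The members' median log2 change was -0.27 beside GSK591 and -0.18 beside MS023, against -0.004 and -0.016 over all tested genes. Beside GSK591 1 of 10 members was called, where 3.7% of tested genes were. Beside MS023 4 were called, 2 higher and 2 lower, where 8.97% were. BAG3 was called in both. It had 26.3 and 26.7 CPM with GSK591 and 38.8 and 37.5 CPM with GSK591 and Dex, a log2 change of 0.53 ± 0.13 (1.44-fold, adjusted p = 0.015). Beside MS023 it rose from 15.8 and 20.1 CPM to 35.4 and 45.4 CPM, a change of 1.19 ± 0.14 (2.28-fold, adjusted p = 4.5e-08). The Dex libraries of BAG3 did not overlap with those of the inhibitor alone. The BAG3 call beside GSK591 was lost with any of the 4 compared libraries left out (adjusted p = 0.059 to 0.13), with DESeq2 (0.077) and with library size alone as the scaling (0.32, adjusted p = 0.24), whereas beside MS023 it was kept under every alternative.

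DNAJB1 rose beside MS023 from 72.7 and 76.0 CPM to 104.6 and 107.7 CPM with Dex (0.52 ± 0.09, 1.43-fold, adjusted p = 0.00017). Beside GSK591 it had 84.3 and 80.7 CPM without Dex and 103.7 and 92.9 CPM with it (0.25 ± 0.10, adjusted p = 0.14). HSPB1 was not called, at 0.32 ± 0.11 beside GSK591 (adjusted p = 0.097) and 0.28 ± 0.11 beside MS023 (adjusted p = 0.1). The inducible HSP70 genes went the other way. HSPA1A fell beside MS023 from 62.0 and 56.6 CPM to 42.6 and 41.5 CPM (-0.50 ± 0.11, adjusted p = 0.0016) and had 40.0 and 40.1 CPM beside GSK591 (-0.37 ± 0.11, adjusted p = 0.056). HSPA1B fell beside MS023 from 55.9 and 54.8 CPM to 36.9 and 36.0 CPM (-0.60 ± 0.11, adjusted p = 0.00023) with a log2 change of -0.28 ± 0.12 beside GSK591 (adjusted p = 0.19). Summed over the copies the change was -0.55 ± 0.10 beside MS023 (adjusted p = 2e-04) and -0.33 ± 0.10 beside GSK591 (adjusted p = 0.067). The DNAJB1 call beside MS023 was lost with library size alone (0.33, adjusted p = 0.12), and that of HSPA1A without replicate 1 of the MS023 15 min group (adjusted p = 0.087). Mitochondrial genes took 48.2% and 58% of counts with GSK591 and Dex, and 39.8% and 44.5% in the MS023 15 min group that MS023 with Dex was set against. Their part was not tested.

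The direct test of whether the Dex change differed between the inhibitors called 0 of 10 members, where 1.15% of tested genes were called (1 member and 2360 genes at an unadjusted p below 0.05). BAG3 came nearest, with a smaller change beside GSK591 by -0.66 ± 0.19 on the log2 scale (95% interval -1.05 to -0.27, adjusted p = 0.085). The count became 1 without replicate 2 of the MS023 15 min group or without replicate 1 of the MS023 and Dex group. Against untreated cells, which these comparisons share, 3 members were called with GSK591 and Dex (5.85% of tested genes) and 4 with MS023 and Dex (7.66%). BAG3 rose by 0.78 ± 0.14 (adjusted p = 0.00016) and 0.87 ± 0.13 (adjusted p = 9.3e-06), and DNAJB1 by 0.40 ± 0.10 (adjusted p = 0.006) and 0.51 ± 0.09 (adjusted p = 0.00019). HSPA1A fell with GSK591 and Dex (-0.40 ± 0.11, adjusted p = 0.027), and HSPA1B (-0.46 ± 0.11, adjusted p = 0.006) and HSP90AA1 (-0.59 ± 0.17, adjusted p = 0.021) fell with MS023 and Dex. HSP90AA1 had 43.7 and 47.4 CPM there against 63.5 and 73.9 CPM in untreated cells, and its call was lost with DESeq2 (adjusted p = 0.37) and without any of the 4 compared libraries (0.052 to 0.23). Without any of the 4, the HSPA1A call with GSK591 and Dex was lost too (0.087 to 0.19), as it was with DESeq2 (0.069). That of DNAJB1 with GSK591 and Dex was lost without either untreated library (0.13 and 0.052), without replicate 1 of the treated group (0.098) and with library size alone (0.27, adjusted p = 0.29). That of HSPA1B with MS023 and Dex was lost without replicate 2 of the untreated (0.091) or of the treated group (0.087), and with library size alone (0.054). The count was 1 with GSK591 and Dex without either untreated library or without replicate 1 of the treated group, and 2 with MS023 and Dex without replicate 2 of the treated group.

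**Figure D3:**
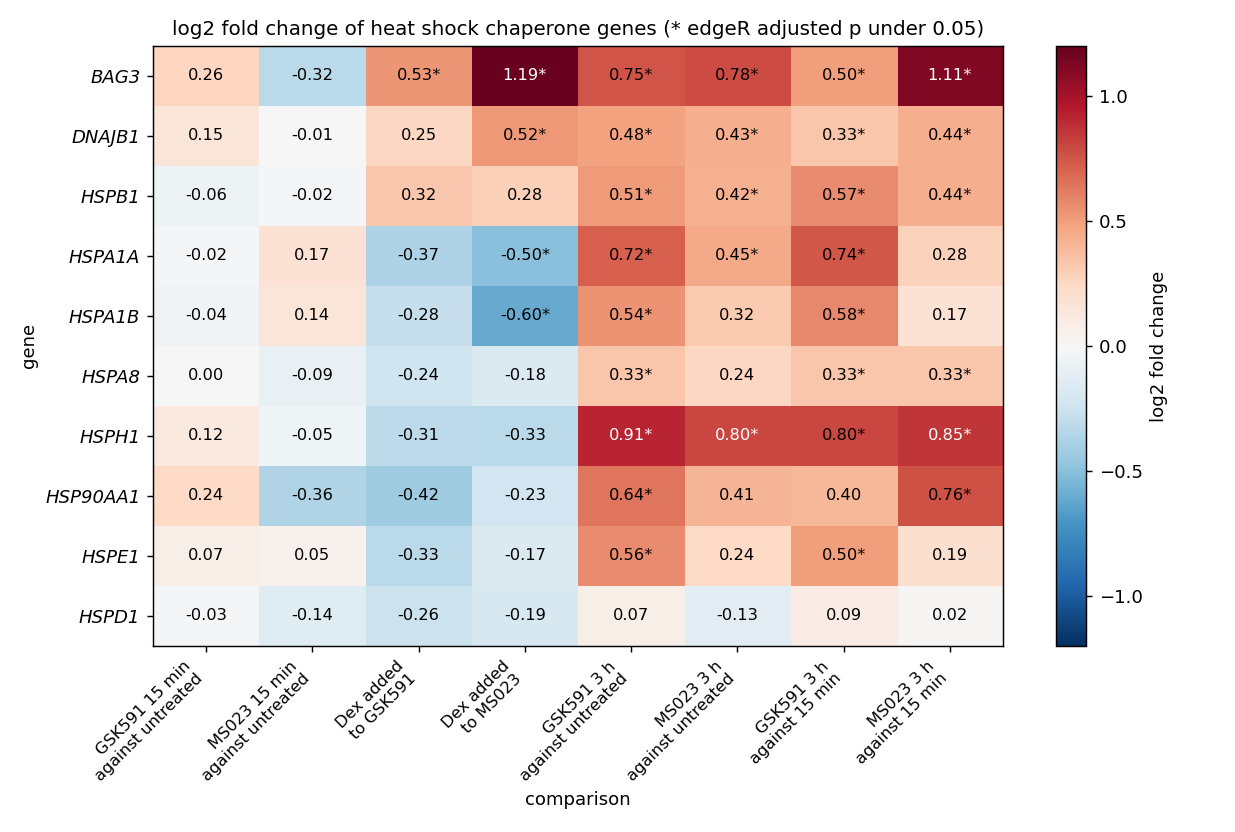
Heat map of edgeR log2 fold changes, with the 10 genes as rows and 8 comparisons as columns (each inhibitor at 15 min and 3 h against untreated cells, Dex added to each inhibitor, and 3 h against 15 min); each cell prints its value, red is higher, blue is lower, and an asterisk marks an adjusted p below 0.05. BAG3 and DNAJB1 are above 0 at 3 h and with Dex beside both inhibitors, while HSPA1A is above 0 at 3 h (0.72 and 0.45) and below 0 with Dex (-0.37 and -0.50).

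BAG3 and DNAJB1 rose both at 3 h and with Dex beside MS023, while HSPA1A rose at 3 h and fell with Dex beside MS023. Across the 14 libraries, which share the groups and the scaling, the log2 levels of BAG3 and DNAJB1 had a Pearson r of 0.933, and those of HSPB1 had r = 0.807 with BAG3 and 0.825 with DNAJB1. HSPA1A and HSPA1B had r = 0.96, with 71.32% of the 50-base stretches of HSPA1A shared, and HSPH1 had r = 0.916 with HSPA8 and 0.888 with HSPA1A. BAG3 had r = -0.02 with HSPA1A and -0.12 with HSPA1B. These values describe 14 libraries in 7 groups.

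GSK591 and MS023 inhibit different classes of arginine methyltransferase and were given at the same dose and times, so their members' levels were compared directly, over 10 genes at each of 2 times with p-values adjusted over all tested genes. At 15 min 1 of 10 members was called, where 1.09% of tested genes were. BAG3 was higher with GSK591, at 26.3 and 26.7 CPM against 15.8 and 20.1 CPM with MS023, a log2 difference of 0.58 (95% interval 0.28 to 0.87, adjusted p = 0.034). HSP90AA1 had a difference of 0.60 (0.26 to 0.93, adjusted p = 0.073), with libraries that overlapped. HSPA1A and HSPA1B lay lower with GSK591 by -0.20 (-0.41 to 0.02) and -0.19 (-0.41 to 0.03). For the other 6 members the difference lay between -0.04 (HSPB1, -0.27 to 0.18) and 0.17 (HSPH1, -0.12 to 0.45). The BAG3 call was lost with DESeq2 (adjusted p = 0.16), with library size alone (0.47, adjusted p = 0.4) and without replicate 1 of the MS023 group (0.40, adjusted p = 0.73), replicate 1 or 2 of the GSK591 group (0.27 and 0.17) or replicate 2 of the GSK591 3 h group (0.05). At 3 h edgeR called 0 of 10 members and 0% of tested genes (3 members and 1319 genes at an unadjusted p below 0.05). The difference was 0.26 for HSPA1A (0.06 to 0.47), 0.32 for HSPE1 (0.07 to 0.58), 0.22 for HSPA1B (0.01 to 0.43), 0.23 for HSP90AA1 (-0.08 to 0.55), 0.11 for HSPH1 (-0.13 to 0.35), 0.05 for DNAJB1 (-0.14 to 0.23) and -0.03 for BAG3 (-0.28 to 0.22). The direct test at 3 h thus called no member. The larger number of calls with GSK591 than with MS023 at that time does not show a difference between the inhibitors.

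Around the 10 members, other genes of the pathway were counted in 7 lists. At 15 min of either inhibitor alone, no gene of any list was called, where 0.306% of tested genes were with GSK591 and 0.183% with MS023. The list counts at 3 h stand beside 11% of all tested genes called with GSK591 and 7.63% with MS023, and a small count near those shares says nothing of its list. Of 20 co-chaperones of HSP90 and HSP70, 6 were higher with GSK591 and 5 with MS023, none lower, with medians of 0.27 and 0.14. FKBP4, an immunophilin of the HSP90 and steroid receptor complex, had 26.3 and 30.0 CPM in untreated cells, 49.8 and 45.1 CPM with GSK591 and 45.4 and 47.4 CPM with MS023. It rose by 0.75 ± 0.11 (adjusted p = 3.4e-06) and 0.72 ± 0.11 (adjusted p = 1.2e-05). STIP1, which bridges HSP70 and HSP90, rose from 49.3 and 45.5 CPM to 71.1 and 75.5 CPM with GSK591 and to 77.5 and 70 CPM with MS023 (0.63 and 0.64 on the log2 scale). STUB1, a ubiquitin ligase for chaperone clients, rose by 0.75 ± 0.11 with GSK591 (adjusted p = 3.8e-06) and by 0.56 ± 0.11 with MS023 (adjusted p = 6e-04). BAG2, an inhibitor of STUB1, rose by 0.74 ± 0.15 with GSK591 (adjusted p = 0.00068) and by 0.82 ± 0.15 with MS023 (adjusted p = 2e-04). Among 18 other cytosolic heat shock chaperones tested of 19, GSK591 gave 2 higher (HSPB6, 0.64, and DNAJA2, 0.46) and MS023 1 higher (HSPB6, 0.51) and 1 lower (DNAJB5, -0.43). HSPA6, an HSP70 gene transcribed almost only under strong stress, had 3.01 and 3.5 CPM in untreated cells, 1.58 and 3.49 CPM with GSK591 and 1.74 and 1.94 CPM with MS023 at 3 h, and was called in no comparison.

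The transcription factor HSF1 itself was not called, at 71.1 and 60.9 CPM in untreated cells, 68.3 and 65.5 CPM with GSK591 and 79.3 and 66.5 CPM with MS023 at 3 h (log2 changes 0.02 ± 0.11, adjusted p = 0.94, and 0.15 ± 0.11, adjusted p = 0.48). Of 10 factors and regulators 2 rose at 3 h with each inhibitor. SIRT1, a deacetylase that acts on HSF1, rose from 30.3 and 27.3 CPM to 72.2 and 70.2 CPM with GSK591 and 66.3 and 70.0 CPM with MS023 (1.31 and 1.24 on the log2 scale), and HSBP1, which binds HSF1 trimers, rose by 0.51 and 0.48. Of 8 subunits of the TRiC chaperonin none was called at 3 h with either inhibitor. Of 10 other mitochondrial chaperones and proteases 1 was called at 3 h, LONP1 with GSK591 (-0.32). Of 17 endoplasmic reticulum chaperones and stress genes 1 was called with each inhibitor, the collagen chaperone SERPINH1 (0.33 and 0.32). The medians of the endoplasmic reticulum list were 0.01 and -0.12.

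**Figure D4:**
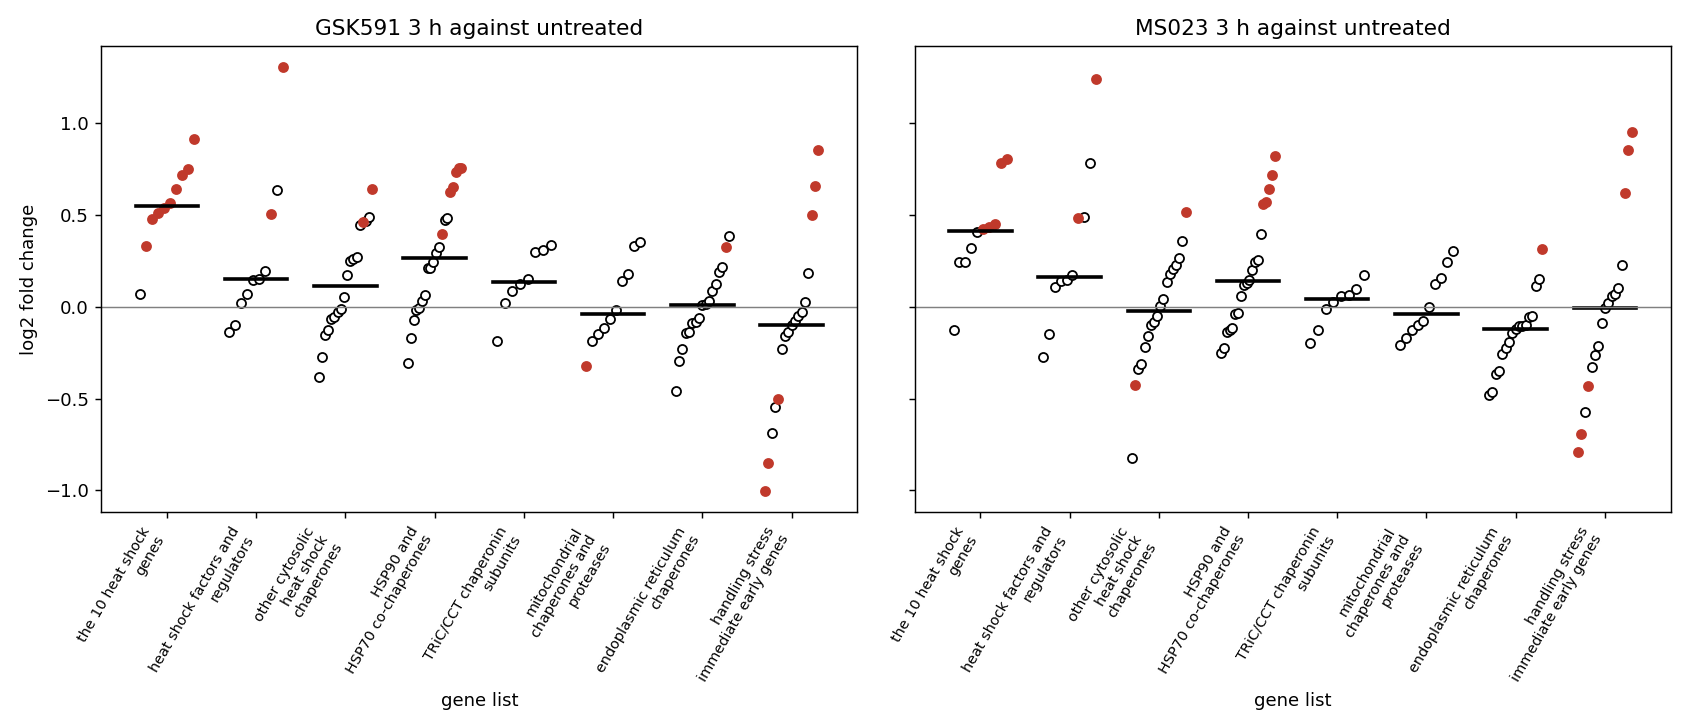
Log2 fold changes at 3 h against untreated cells of the members and of each pathway list, 1 point per gene, sorted by value within a list, with called genes in red and a bar at the median of each list. The members' medians are 0.55 with GSK591 and 0.41 with MS023, and those of the co-chaperones 0.27 and 0.14.

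With Dex the co-chaperone with the largest change was FKBP5, a receptor-bound immunophilin that is a known glucocorticoid target. It had 5.91 and 5.47 CPM in untreated cells, 13.2 and 15.8 CPM with GSK591 and Dex, and 12.0 and 15.4 CPM with MS023 and Dex. Adding Dex raised FKBP5 by 1.23 beside GSK591 (adjusted p = 0.0003) and by 1.10 beside MS023 (adjusted p = 0.00032). In the same comparisons CDC37, which brings kinases to HSP90, fell beside GSK591 (-0.48, adjusted p = 0.046) and PTGES3, the HSP90 co-chaperone of receptor complexes, fell beside MS023 (-0.48, adjusted p = 0.0065), while the list's medians were -0.14 and -0.09. These counts stand beside 3.7% of tested genes called on adding Dex to GSK591 and 8.97% on adding it to MS023.

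Immediate early genes, which respond to serum, stretch and handling within minutes, were counted as another check of stress, and 17 of 18 were tested. None was called after 15 min of either inhibitor alone, with medians of -0.01 and -0.07. Of all tested genes 0.306% were called with GSK591 and 0.183% with MS023, so the lack of a call says nothing of this list. At 3 h 3 were higher and 3 lower with each inhibitor. NR4A1 fell with GSK591 by 1.00 and with MS023 by 0.79 on the log2 scale, JUN fell by 0.85 and 0.69, BTG2 rose by 0.85 and 0.95, and JUND by 0.66 and 0.86. Adding Dex gave 4 higher and 5 lower beside GSK591, and 4 higher and 3 lower beside MS023. Those with the smallest adjusted p were ZFP36 (1.35 and 1.74), IER2 (-0.93 and -1.12) and DUSP1 (0.77 and 1.07), of which ZFP36 and DUSP1 are known glucocorticoid targets. All groups went through the same harvest on ice per the labels, and a stress shared by all groups would not appear in any difference between them.

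By Pearson r over the 14 libraries with the members' mean centred log2 level, the genes most like the members among 9974 genes were RDM1 (0.966), FKBP4 (0.96), FZD2 (0.95), DEDD2 (0.95) and PTPA (0.944). That mean profile was -0.09 and -0.14 in untreated libraries, 0.48 and 0.38 after 3 h of GSK591, and 0.29 and 0.27 after 3 h of MS023. In the 8 libraries of 15 min treatments it ran from -0.27 to 0.02, with no group above all untreated libraries.

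In the authors' deposited tables of comparisons with control, 5 members had an adjusted p below 0.05 at 3 h of GSK591 and 3 at 3 h of MS023, led by HSPH1 in each (log2 changes 1.06 and 0.95, adjusted p = 0.00031 and 0.0029). The authors' deposited tables listed all 10 members above 0 at 3 h of either inhibitor. For HSPD1 the authors' deposited table gives 0.04 at 3 h of MS023, where the fit here gave -0.13, neither past the threshold. Under the alternatives here, including those with a library left out, the HSPD1 change ran from -0.25 to 0.04. For HSP90AA1 at 3 h of GSK591 the deposited change was 0.54, and the fit here gave 0.64, or 0.54 without untreated replicate 1. For DNAJB1 with GSK591 and Dex the deposited change was 0.37, and the fit here gave 0.40, or 0.37 without that replicate. Which control libraries entered the deposited comparisons is not known here, so the deposited values may rest on other libraries than the fit here. With Dex the authors' deposited tables had 3 members above 0 and 7 below 0 beside either inhibitor, with 0 past the threshold for GSK591 and Dex (BAG3 nearest, adjusted p = 0.054) and 2 for MS023 and Dex (BAG3, 0.88, adjusted p = 0.013). At 15 min of an inhibitor alone the authors' deposited tables had 0 members past it.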

How the data were processed

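PRO-seq libraries of A549 cells were analysed from the count of reads per gene that the authors deposited, as raw counts in 14 columns. Per the submitters' processing notes, featureCounts 2.0.1 (Subread), the hg38 build and DESeq2 were used. The aligner, counted feature, strand setting and handling of duplicates are not given in the sources used here. The identifiers matched GENCODE 29 for 58780 of 58780 genes.

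The authors also deposited 6 tables of comparisons with control. From these deposited tables the log2 fold changes and p-values are quoted. The mean signal and the test-statistic score that the authors deposited beside them were not used.

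Groups came from the labels. In edgeR 4.0.16 (R 4.3.3, limma 3.58.1), all 14 libraries were fitted together with TMM scaling, filterByExpr and quasi-likelihood tests (7 residual degrees of freedom, common biological coefficient of variation 0.073), and p-values were adjusted by Benjamini-Hochberg over 21910 genes in each of 14 comparisons. The script was first tested on simulated counts. Totals of 5768312 to 9606938 counts set the precision. Alternatives were other scalings, DESeq2 1.42.0, no count filter, fitting the compared groups alone, a replicate block, summing the HSPA1 copies and leaving out each library.

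Replicate numbers are shared between groups in the labels. Differences between replicates correlated between pairs of groups at -0.14 to 0.26, over 0.1 in 7 of 21 pairs, so the numbers were not taken to pair libraries.

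All 10 members were described. Genes of 7 pathway lists were counted, with up to 3 called genes per list and comparison named by smallest adjusted p. HSF1 and HSPA6 fall outside this rule and were named after their values were seen, and values of a named gene in other comparisons were given beside it. The 5 most similar genes were ranked by Pearson r, leaving out genes averaging below 10 CPM. The members and lists were chosen with earlier results of these data known.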

Additional observations from a re-analysis of the deposited data

Results flagged for a closer look

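JUND, an immediate early transcription factor gene outside the chaperone members, was the listed gene whose changes differed between the inhibitors by a direct test. Its level was 57 and 57.5 CPM in untreated cells, 86.5 and 73.6 CPM after 15 min of GSK591, and 41.2 and 59.9 CPM after 15 min of MS023. With Dex it was 78.4 and 67.6 CPM beside GSK591 and 83.1 and 89.2 CPM beside MS023, and the Dex change was smaller beside GSK591 by -0.92 ± 0.17 (log2, SE; edgeR adjusted p = 0.0018). At 3 h it was 86.3 and 94.6 CPM with GSK591 and 106 and 101 CPM with MS023, and the change from 15 min was smaller with GSK591 by -0.88 ± 0.16 (edgeR adjusted p = 0.0046). Both tests use the same 15 min libraries of the inhibitors alone.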

How the results depend on the processing

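Of 140 log2 changes (10 members in 14 comparisons), 41 were called, and over 3206 values under the alternatives no call changed sign, 76 lost and 49 gained a call. The number of members called with library size alone was 4 for Dex added to GSK591, 3 for MS023 from 15 min to 3 h and 0 for GSK591 against MS023 at 15 min. Under that scaling the median log2 change of all genes was -0.21, -0.16 and -0.09 in them, against 0.00, -0.01 and 0.01 with TMM. With the library size of nuclear genes alone, chosen after seeing the data, it was 5 for GSK591 with Dex and 8 for MS023 with Dex against untreated cells, 2 for Dex added to GSK591 and 1 for the difference of the Dex changes. With DESeq2 it was 0 for Dex added to GSK591 and 0 for GSK591 against MS023 at 15 min, and without the count filter 2 in each. With only the compared groups fitted it was 8 for MS023 with Dex against untreated cells. With the replicate block it was 2 for GSK591 against MS023 at 15 min, the added gene being HSP90AA1 (0.58), and it changed no other count by over 1.5 times. With 1 library left out the counts ran from 1 to 3 for GSK591 with Dex and 2 to 5 for MS023 with Dex against untreated cells, 3 to 7 for MS023 at 3 h, 0 to 2 for Dex added to GSK591, 0 to 1 for the difference of the Dex changes, 4 to 9 for GSK591 and 3 to 7 for MS023 from 15 min to 3 h, and 0 to 2 for GSK591 against MS023 at 15 min. The cause of these moves was not tested. The share of all tested genes called under each alternative is not given. A higher or lower count of members there thus has no background to be read against. With 2 libraries per group and member counts from 105, small changes in single genes were not detectable at this depth.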
